A study of Mus musculus with 18 samples.

Results

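Chemoattractant receptors that sense formyl peptides, complement fragments, leukotriene B4, platelet-activating factor, histamine, UDP-sugars and prostaglandin D2 are the subject here, measured as RNA in mouse eosinophils. The 10 genes were chosen by name for these ligands, *Fpr1*, *Fpr2*, *C5ar1*, *C5ar2*, *C3ar1*, *Ptafr*, *Ltb4r1*, *Hrh4*, *P2ry14* and *Ptgdr2*, of 55029 genes listed for the first set of libraries and 54232 for the second. The cells came from the peritoneal cavity of C57BL/6 mice that carry an *Il5* transgene. Beads against a T cell antigen and a B cell antigen were used to remove lymphocytes. The study used cells only above a purity limit by flow cytometry, and describes the remaining other cells as mostly lymphocytes. All groups share the *Il5* transgene, which keeps IL-5 high in the donor animals, so that cells of wild-type mice were not measured. The age of the animals is not given in the sources used here. In the first set, 3 libraries each came from unstimulated cells (a to c) and from cells kept for 18 h with heat-inactivated *E. coli*, with IFN-γ at 50 ng/ml, or with IFN-γ at 50 ng/ml together with *E. coli*. In the second set, 3 libraries came from unstimulated cells (d to f) and 3 from cells kept for 18 h with IL-4 at 100 ng/ml. The design asks how stimuli of type 1 and type 2 immunity change the cells.

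These receptors span the membrane of the cell, and all but *C5ar2* signal through heterotrimeric G proteins. Formyl peptides mark bacteria and damaged mitochondria, C3a and C5a arise when complement is cleaved, and leukotriene B4, platelet-activating factor and prostaglandin D2 are lipids made by activated leukocytes. Eosinophils follow such gradients into inflamed tissue, and the same receptors can set off degranulation and the oxidative burst.

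Totals of counts on genes ran from 1523808 to 2734041 in the first set and from 3625036 to 6482289 in the second. No gene of the first set exceeded 4095 counts in any library, with the highest gene between 4089 and 4095 counts in each, although the totals differed. There are 4096 distinct sequences of 6 bases. In the second set the highest gene had 87377 to 191131 counts. The study's methods give counts of reads with a unique alignment, and no step that merges reads by tag is described in the sources used here. With the ceiling in the first set alone, the counts of the sets were not taken to share a unit, levels are not compared between sets, and each stimulus is set against the unstimulated libraries of its own set. Levels are counts-per-million values (CPM), scaled to library sizes after TMM normalisation.

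Markers of eosinophils were present in all 18 libraries. The 11 genes of the eosinophil list summed to 4082 to 6701 CPM per library in the first set and 5585 to 7023 in the second. *Alox15* or *Ccr3* was the most abundant. In the first set *Alox15* came near the ceiling, so that the sums of that set may be too low. A correction for tags shared by molecules, chosen after seeing the data, gave it 9915 in unstimulated library a. The eosinophil peroxidase gene *Epx* was low, with 0 to 4 counts in the libraries of the first set and 5 to 19 in those of the second. Of the 8 of them tested in the first set, 1 rose and 2 fell with *E. coli*, 1 rose and 5 fell with IFN-γ, and 1 rose and 5 fell with both, and of 11 tested in the second set 4 rose and 2 fell with IL-4.

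Of the 10 receptors, 7 passed the filter on low counts in the first set and 8 in the second. *Hrh4*, the histamine H4 receptor, had 0 counts in all libraries but the IL-4 library 2, with 3 counts. *Ptgdr2*, the prostaglandin D2 receptor also called CRTH2, had 0 to 9 counts per library in the first set and 0 or 1 in the second, and did not pass in either set. Its exons share 1031 bases with *Ccdc86* on the opposite strand, and use of strand in counting is not stated. *C5ar2*, a receptor for C5a that does not couple to G proteins like its neighbour *C5ar1*, passed in the second set. Summed over 3 libraries, *Ptgdr2* had 19 counts in unstimulated cells, 5 with IFN-γ and 3 with both stimuli, beside 18 in the *E. coli* group, and the level of unstimulated cells was 2.99 times that with IFN-γ (exact 95% interval 1.08 to 10.3) and 4.46 times that with both (1.31 to 23.6). These intervals cover counting error only, and IFN-γ library 2, with 4 of the 5 counts, was at 2.05 CPM, within the range of the unstimulated libraries (1.86 to 5.70). Without 1 library, a check chosen after seeing the data, the ratios of *Ptgdr2* ran from 1.98 to 9.43 and from 3.03 to 9.50.

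With *E. coli*, 1 of the 7 tested receptors changed, *Fpr1*, which rose, where 30.2% of all tested genes changed, 13.5% higher and 16.7% lower. IFN-γ changed 2 of 7, with *Fpr2* higher and *Ltb4r1* lower, against 31.6% of all tested genes, 15.6% higher and 16.0% lower. With both stimuli, 5 of 7 changed, *Fpr1*, *Fpr2* and *Ptafr* higher and *Ltb4r1* and *P2ry14* lower, beside 49.0% of all tested genes, 23.9% higher and 25.2% lower. IL-4 changed 3 of 8, *C5ar2* higher and *Fpr1* and *Fpr2* lower, where 10.3% of all tested genes changed, 5.97% higher and 4.35% lower. With so few receptors no conclusion is drawn from any of these counts. Those for *E. coli* and IFN-γ do not stand above the shares of all genes, and the comparisons of the first set share unstimulated libraries a to c. Median log2 fold changes of the tested receptors were 0.15 with *E. coli*, -0.09 with IFN-γ, -0.03 with both and -0.17 with IL-4, and those of all tested genes were -0.02, -0.03, -0.04 and 0.00.

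**Figure D1:**
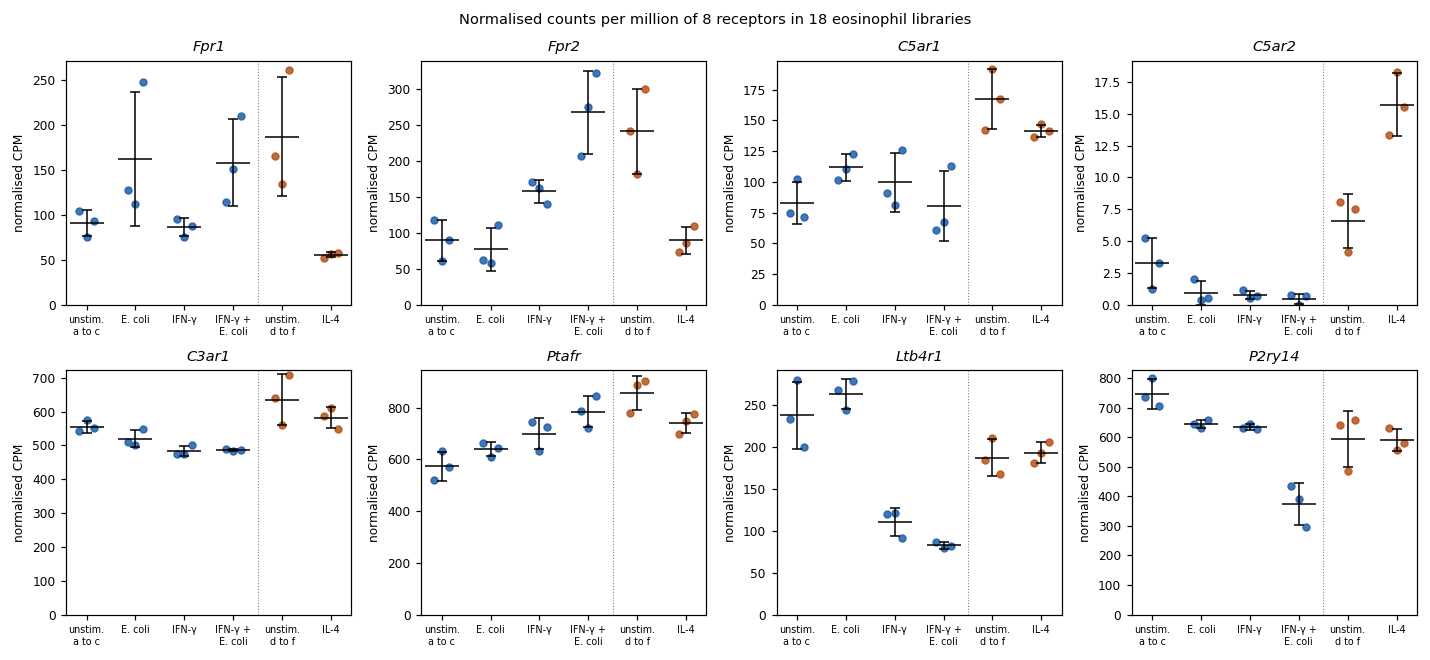
Normalised CPM (vertical axis, from 0) of 8 receptors in each of 18 libraries, by group on the horizontal axis; points are libraries, horizontal lines are means and whiskers SD (n = 3), with the first set in blue and the second in orange. *Fpr2* lay at 206 to 321 CPM with IFN-γ and *E. coli*, above its unstimulated libraries at 60.2 to 118, and at 72.7 to 109.9 with IL-4, below 181 to 299.

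The formyl peptide receptors *Fpr1* and *Fpr2* lie side by side on chromosome 17. *Fpr1* (GRCm38 chromosome 17, 17876471 to 17883940, minus strand) binds bacterial formyl peptides with high affinity, and *Fpr2* (17887824 to 17893952, plus strand) also binds serum amyloid A and annexin A1. *Fpr1* was at 104, 74.8 and 93.3 CPM in libraries a to c of unstimulated cells and at 127, 112 and 247 with *E. coli*. It was at 95.7, 75.4 and 87.0 with IFN-γ and at 114, 151 and 209 with both stimuli. All 6 libraries given *E. coli*, with or without IFN-γ, were above the 3 unstimulated libraries, while those of IFN-γ alone overlapped them, and *E. coli* library 3 was far above its replicates. The log2 fold change of *Fpr1* was 0.81 with *E. coli* (SE 0.24, adjusted p = 0.0163), -0.09 with IFN-γ (SE 0.26, adjusted p = 0.824) and 0.79 with both (SE 0.25, adjusted p = 0.0133). Without *E. coli* library 3 the first of these was 0.39 (adjusted p = 0.136), without unstimulated library b it was 0.72 (adjusted p = 0.0592), and without library 3 of both stimuli the last was 0.56 (adjusted p = 0.0700).

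*Fpr2* rose with IFN-γ. Its level was 118, 60.2 and 90.0 CPM in unstimulated libraries a to c, 61.6, 57.8 and 111 with *E. coli*, 171, 162 and 139.9 with IFN-γ, and 206, 274 and 321 with both. All libraries with IFN-γ alone were above all unstimulated ones, all libraries with both stimuli were above those with IFN-γ alone, and *E. coli* alone overlapped the unstimulated libraries. Log2 fold changes were -0.26 with *E. coli* (SE 0.24, adjusted p = 0.441), 0.80 with IFN-γ (SE 0.23, adjusted p = 0.0128) and 1.56 with both (SE 0.23, adjusted p = 1.6e-05). Without unstimulated library b the change with IFN-γ was 0.63 (adjusted p = 0.0502), and without *E. coli* library 3 that with *E. coli* was -0.60 (adjusted p = 0.0451). Reads on sequence that *Fpr2* shares with *Fpr3*, which overlaps it by 48 exonic bases and had 0 counts in all 18 libraries, or with *Gm5966*, 95.7% identical over 1041 bases, can have been left out of the counts.

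IL-4 lowered both. *Fpr1* was at 166, 134 and 261 CPM in libraries d to f of unstimulated cells and at 52.1, 56.3 and 57.5 with IL-4, and *Fpr2* was at 241, 181 and 299 against 72.7, 86.2 and 109.9. Every IL-4 library was below every unstimulated library for both genes, and the IL-4 libraries of *Fpr1* lay close together while unstimulated library f was high. The log2 fold change was -1.76 for *Fpr1* (SE 0.22, adjusted p = 0.000921) and -1.43 for *Fpr2* (SE 0.20, adjusted p = 0.00189). In bulk samples fewer cells of a type and less RNA per cell cannot be told apart. The macrophage list summed to 2422, 2815 and 3041 CPM in libraries d to f of unstimulated cells and 2003, 1921 and 2208 with IL-4. Of its 12 tested genes 6 fell and 0 rose. *Marco* (log2 fold change -2.77), *Csf1r* (-0.68) and *C1qb* (-0.51) were among those that fell. *C1qc* (-0.06, adjusted p = 0.850), *Timd4* (0.53, adjusted p = 0.0856) and *Gata6* (0.62, adjusted p = 0.106) did not pass. *C1qc* or *C1qb* was the most abundant gene of the list in the second set, and *Folr2* was at 0 in IL-4 library 2. The neutrophil list fell from 2159, 2098 and 1881 to 836, 869 and 810 CPM, with 1 of 7 tested genes higher and 3 lower, and *Retnlg* made up 87.3% to 91.8% of it. In this list *Cxcr2* rose (log2 fold change 3.09, adjusted p = 0.000204) and *Retnlg*, *Lcn2* and *Mmp8* fell. *S100a8*, *S100a9* and *Ly6g* did not pass. Among the defining genes of the neutrophil list *Ltf* was at 0 in unstimulated library d and IL-4 libraries 1 and 3. The part of either list in the fall of *Fpr1* and *Fpr2* was not tested.

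In the first set the macrophage list summed to 1404, 1336 and 1428 CPM in unstimulated libraries, 1008, 897 and 1305 with *E. coli*, 1966, 1839 and 1969 with IFN-γ, and 1666, 1769 and 2083 with both. *Csf1r* was most abundant in all of these but libraries 2 and 3 of both stimuli, where *Marco* was. Of its 13 tested genes, 4 fell and 0 rose with *E. coli*, and 5 rose and 1 fell with IFN-γ and likewise with both. The list was thus highest where *Fpr2* rose. Neutrophil genes summed to 703, 901 and 773 CPM in unstimulated libraries, 849.7, 835 and 1236 with *E. coli*, 789, 744 and 834 with IFN-γ, and 798, 908 and 979 with both. The most abundant was *Retnlg* in unstimulated libraries and with IFN-γ, *Lcn2* with *E. coli*, and either with both, while *Ltf* was at 0 in 11 of 12 libraries. Of 6 tested genes 4 rose and 1 fell with *E. coli*, 3 rose and 2 fell with IFN-γ, and 4 rose and 2 fell with both. *E. coli* library 3, highest for *Fpr1*, was also highest of its group in both lists. The part of these cells in the changes of *Fpr1* and *Fpr2* was not tested.

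Other cell types were lower. The mast cell or basophil list summed to 6.69 to 72.9 CPM, highest in libraries 2 and 3 of both stimuli, with *Mcpt8* at 0 in all 12 libraries of the first set. Of its 8 genes 2 were tested in that set, *Tpsb2* and *Cma1*. *Tpsb2* was higher and passed the test with IFN-γ and with both stimuli. *Cma1* was higher and passed it with both stimuli. Each may have passed the filter on low counts only through the groups where it was high. No conclusion is drawn from these calls. B cell genes, led by *Ighm*, summed to 42.0 to 218 CPM in the first set, where 5 of 5 tested genes fell with *E. coli*, 4 fell with IFN-γ and 0 changed with both. In the second set they summed to 24.2 to 73.4, and 3 of 4 rose with IL-4. T or NK cell genes, led by *Cd3d*, stayed at 1.81 to 9.32 CPM, with 1 gene tested and 0 changed. The dendritic cell list stayed at 4.31 to 17.9 CPM, with 0 genes tested in the first set and 1 of 2 higher with IL-4.

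*C5ar1* and *C5ar2*, both receptors for C5a, lie 2588 bases apart on the minus strand of chromosome 7. *C5ar2* (16234585 to 16244154) had 29, 25 and 40 counts in unstimulated libraries d to f, or 8.05, 4.14 and 7.55 CPM, and 70, 110 and 60 counts with IL-4, or 13.3, 18.3 and 15.6 CPM. All IL-4 libraries were above all unstimulated ones. It rose by a log2 fold change of 1.28 (SE 0.29, adjusted p = 0.0191). The call was lost without IL-4 library 1 (1.39, adjusted p = 0.0519), without library 2 (1.14, adjusted p = 0.106) and without library 3 (1.27, adjusted p = 0.0725). In the first set its counts were 14, 2 and 8 unstimulated, 5, 1 and 1 with *E. coli*, 2, 1 and 1 with IFN-γ, and 1, 0 and 1 with both. From summed counts the level of unstimulated cells was 3.83 times that with *E. coli* (exact 95% interval 1.60 to 10.5), 4.73 times that with IFN-γ (1.62 to 18.7) and 8.46 times that with both (2.1 to 73.8), intervals that cover counting error only. Leaving out 1 library, a check chosen after seeing the data, moved these ratios over 2.67 to 9.01, 3.29 to 6.25 and 5.18 to 12, and *E. coli* library 1 held 5 of the 7 counts of its group. Unstimulated library b, at 2 counts, was no higher by count than library 1 of *E. coli* or of IFN-γ.

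*C5ar1* (16246743 to 16259540), the main signalling receptor for C5a, was at 74.9, 103 and 71.4 CPM in unstimulated libraries a to c, 102, 111 and 123 with *E. coli*, 91.2, 81.0 and 126 with IFN-γ and 60.6, 67.4 and 113 with both. It was at 142, 192 and 168 in libraries d to f of unstimulated cells and 136, 147 and 141 with IL-4. Each stimulated group overlapped its unstimulated libraries. The log2 fold change was 0.44 with *E. coli* (SE 0.20, adjusted p = 0.0974), 0.27 with IFN-γ (SE 0.20, adjusted p = 0.338), -0.03 with both (SE 0.21, adjusted p = 0.912) and -0.24 with IL-4 (SE 0.13, adjusted p = 0.287). With *E. coli* it passed the test without the filter on low counts (0.48, adjusted p = 0.00844), in a fit of only the compared libraries (0.47, adjusted p = 0.0187) and without unstimulated library b (0.63, adjusted p = 0.0376).

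*C3ar1*, the receptor for C3a, passed the test with no stimulus. It ranged from 541 to 575 CPM in unstimulated libraries a to c, 500.2 to 549 with *E. coli*, 474 to 501 with IFN-γ, 484 to 489 with both, 559 to 708 in libraries d to f of unstimulated cells and 549 to 610.1 with IL-4. Its log2 fold changes were -0.10, -0.20, -0.19 and -0.13 with *E. coli*, IFN-γ, both and IL-4, with adjusted p of 0.486, 0.119, 0.110 and 0.559. A correction of the first set's counts for tags shared by molecules, chosen after seeing the data, gave -0.28 with IFN-γ (adjusted p = 0.0305) and -0.28 with both (adjusted p = 0.0199), past the threshold.

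With both stimuli *Ltb4r1* fell and *Ptafr* rose. *Ltb4r1* (chromosome 14, plus strand), the high-affinity receptor for leukotriene B4, was at 233, 279 and 199.9 CPM in libraries a to c of unstimulated cells and 267, 244 and 279 with *E. coli*. It was at 119, 121 and 90.9 with IFN-γ and 86.9, 78.9 and 81.1 with both. All libraries given IFN-γ, with or without *E. coli*, were below all unstimulated ones, and those of *E. coli* alone overlapped the latter. It fell by 1.09 on the log2 scale with IFN-γ (SE 0.13, adjusted p = 4.6e-06) and by 1.53 with both (log2 fold change -1.53, SE 0.14, adjusted p = 4.8e-08). The log2 fold change was 0.15 with *E. coli* (SE 0.13, adjusted p = 0.398). With IL-4 it was 0.04 (SE 0.13, adjusted p = 0.868), with 184, 210.2 and 167 CPM in libraries d to f of unstimulated cells and 181, 192 and 206 with IL-4, which overlap.

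*Ltb4r2*, the low-affinity receptor for leukotriene B4, lies 823 bases from *Ltb4r1* on the same strand and is in the list of related receptors. It had 54, 40 and 53 counts in unstimulated libraries a to c, 78, 88 and 74 with *E. coli*, 6, 3 and 6 with IFN-γ and 0, 1 and 0 with both. The groups of the first set do not overlap. The summed level of unstimulated cells was 7.72 times that with IFN-γ (exact 95% interval 4.53 to 14.2) and 104 times that with both, from 147 counts against 1, with an interval of 18.3 to 4120.1, for counting error only. Leaving out 1 library gave ratios of 6.08 to 9.13 with IFN-γ, and at least 70.3 with both. With IFN-γ its log2 fold change was -2.93 (SE 0.32, adjusted p = 1.0e-06), and with *E. coli* it was 0.54 (SE 0.20, adjusted p = 0.0460). In the second set it was at 9.94 to 18.1 CPM unstimulated and at 6.65 to 7.52 with IL-4, where the groups do not overlap either but the log2 fold change of -0.80 (SE 0.29, adjusted p = 0.120) did not pass.

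*Ptafr*, the receptor for platelet-activating factor, was at 520, 633 and 569 CPM in unstimulated libraries a to c, 664, 611 and 644 with *E. coli*, 743, 631 and 724 with IFN-γ and 787, 723 and 844 with both. Only the libraries with both stimuli were all above the unstimulated ones. Its log2 fold change was 0.45 with both (SE 0.11, adjusted p = 0.00247), 0.29 with IFN-γ (SE 0.11, adjusted p = 0.0579) and 0.16 with *E. coli* (SE 0.11, adjusted p = 0.309). DESeq2 called the change with IFN-γ (0.31, adjusted p = 0.0288), as did the correction for shared tags (0.29, adjusted p = 0.0472), and it passed without unstimulated library b (0.39, adjusted p = 0.0182) and without IFN-γ library 2 (0.39, adjusted p = 0.0339). With IL-4 it went from 779, 889 and 902 CPM to 697, 749 and 774, where the groups do not overlap but the log2 fold change of -0.21 (SE 0.11, adjusted p = 0.266) did not pass.

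*P2ry14*, which binds UDP-glucose and related UDP-sugars, was at 735, 802 and 705 CPM in unstimulated libraries a to c, 647, 631 and 659 with *E. coli*, 633, 645 and 627 with IFN-γ and 436, 391 and 297 with both. Libraries of either single stimulus were a little below the unstimulated ones, and those of both were far below all others. The log2 fold change was -0.21 with *E. coli* (SE 0.12, adjusted p = 0.202), -0.23 with IFN-γ (SE 0.12, adjusted p = 0.151) and -0.996 with both (SE 0.12, adjusted p = 2.2e-06). With the counts corrected for shared tags the change with IFN-γ was -0.36 (adjusted p = 0.0340). The correction took the unstimulated counts from 1973, 1265 and 1707 to 2692, 1513 and 2208. Those with both stimuli went from 597, 714 and 450 to 645, 785 and 477, so that -0.996 may understate the fall. IL-4 left it at 633, 558 and 582 CPM, overlapping 640.4, 486 and 658 (log2 fold change -0.01, SE 0.14, adjusted p = 0.974).

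**Figure D2:**
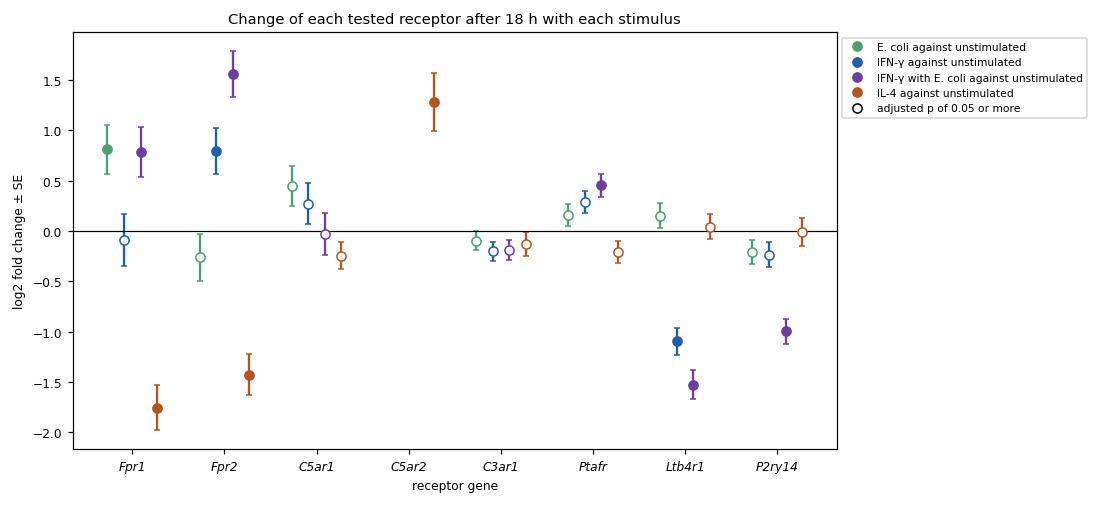
Log2 fold change (vertical axis, with SE as whiskers) of 8 receptors on the horizontal axis, each stimulus against the unstimulated libraries of its set; filled points have an adjusted p under 0.05 by edgeR's quasi-likelihood test. *Ltb4r1* stood at -1.09 with IFN-γ and -1.53 with both stimuli, and *Fpr1* at -1.76 with IL-4.

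Stimuli of the first set were also compared with each other. Both stimuli against IFN-γ alone gave 3 of 7 receptors changed, where 12.2% of all tested genes changed: *Fpr1* (log2 fold change 0.88, SE 0.25, adjusted p = 0.0291) and *Fpr2* (0.76, SE 0.22, adjusted p = 0.0298) higher and *P2ry14* (-0.76, SE 0.12, adjusted p = 0.000352) lower. *Ltb4r1* was at -0.43 (adjusted p = 0.0621), and *C5ar1*, *C3ar1* and *Ptafr* at -0.30, 0.01 and 0.17 did not pass. *Ltb4r1* passed here with the replicate block (adjusted p = 0.0368), without the filter on low counts (0.0363), in a fit of the 9 stimulated libraries (0.0411) and without IFN-γ library 3 (0.0270), and *C5ar1* passed without library 3 of both stimuli (-0.63, adjusted p = 0.0386). Leaving out any of the 6 libraries but library 1 of both stimuli ended the calls of *Fpr1* (adjusted p up to 0.120) and of *Fpr2* (up to 0.1003). Against *E. coli* alone, both stimuli changed 4 of 7, where 32.8% of all tested genes changed: *Fpr2* (1.82, SE 0.23, adjusted p = 5.2e-06) and *Ptafr* (0.29, SE 0.11, adjusted p = 0.0498) higher, *Ltb4r1* (-1.68, SE 0.14, adjusted p = 2.4e-08) and *P2ry14* (-0.79, SE 0.12, adjusted p = 6.3e-05) lower. *C5ar1*, *C3ar1* and *Fpr1* at -0.48, -0.09 and -0.02 did not pass, though *C5ar1* did with the replicate block (-0.52, adjusted p = 0.00753), without the filter (-0.51, adjusted p = 0.00551) and without library 3 of both stimuli (-0.80, adjusted p = 0.00270). The call of *Ptafr* was lost in 5 of 6 fits that left out 1 library, all but that without library 2 of both stimuli, with an adjusted p up to 0.174, and also without the filter (0.25, adjusted p = 0.187), with only the compared libraries (0.29, adjusted p = 0.0535) and with the correction for shared tags (0.23, adjusted p = 0.115). IFN-γ against *E. coli* changed 3 of 7, where 25.5% of all tested genes changed: *Fpr2* (1.06, SE 0.23, adjusted p = 0.00197) was higher with IFN-γ and *Ltb4r1* (-1.25, SE 0.13, adjusted p = 7.7e-07) and *Fpr1* (-0.90, SE 0.25, adjusted p = 0.0111) lower. *C5ar1*, *C3ar1*, *Ptafr* and *P2ry14* at -0.17, -0.10, 0.13 and -0.02 did not pass. *Fpr1* was at -0.47 (adjusted p = 0.0851) without *E. coli* library 3 and at -0.80 (adjusted p = 0.0553) without IFN-γ library 2.

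Whether the joint effect departs from the sum of the log2 effects of IFN-γ and *E. coli* was tested as an interaction. By edgeR 0 of 7 receptors passed, where 4.62% of all tested genes did, with 4 of 7 at an unadjusted p under 0.05, and DESeq2 called 1, *P2ry14*. Without the filter on low counts edgeR called 4 of 7, *Fpr2* (0.95, adjusted p = 0.000186), *C5ar1* (-0.81, adjusted p = 0.00699), *P2ry14* (-0.62, adjusted p = 0.0192) and *Ltb4r1* (-0.65, adjusted p = 0.0351). The interaction was -0.55 for *P2ry14* (SE 0.17, adjusted p = 0.0778), -0.58 for *Ltb4r1* (SE 0.19, adjusted p = 0.0992), 1.02 for *Fpr2* (SE 0.32, adjusted p = 0.0820) and -0.74 for *C5ar1* (SE 0.29, adjusted p = 0.172). *Fpr1*, *C3ar1* and *Ptafr* were at 0.07, 0.11 and 0.01. Without unstimulated library b, *P2ry14* (-0.63, adjusted p = 0.0437), *Ltb4r1* (-0.74, adjusted p = 0.0279) and *Fpr2* (1.19, adjusted p = 0.0343) passed. *Fpr2* passed also without *E. coli* library 3 (1.36, adjusted p = 0.00548) and without library 1 of both stimuli (1.15, adjusted p = 0.0468), *P2ry14* without the latter (-0.69, adjusted p = 0.0281), *Ltb4r1* without IFN-γ library 3 (-0.72, adjusted p = 0.0456) and *C5ar1* without library 3 of both stimuli (-1.10, adjusted p = 0.0108).

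The response to IL-4 was set against each response of the first set in a fit of all 18 libraries. Of the 7 receptors that passed the filter in both sets, it differed from the *E. coli* response for 3, *Fpr1*, *Fpr2* and *C5ar1*, where 28.1% of all tested genes differed. *Ptafr* (-0.39, adjusted p = 0.0625) passed there by DESeq2 (-0.41, adjusted p = 0.0209), with the correction for shared tags (-0.47, adjusted p = 0.0241) and without unstimulated library b (-0.46, adjusted p = 0.0288) or d (-0.46, adjusted p = 0.0337). Against the IFN-γ response 4 of 7 differed, *Fpr1*, *Fpr2*, *Ptafr* and *Ltb4r1*, where 27.8% of all tested genes did. Against the response to both stimuli 5 of 7 differed, *Fpr1*, *Fpr2*, *Ptafr*, *Ltb4r1* and *P2ry14*, where 39.2% of all tested genes did. *C5ar2*, which entered this fit by its counts in the second set and had few in the first, passed in all of these comparisons, for 4, 5 and 6 of 8, and is left out of the counts above. *C3ar1* passed in 0 of these comparisons by edgeR and in 0 at an unadjusted p under 0.05. The difference for *Fpr2* was -1.19 against *E. coli*, -2.26 against IFN-γ and -3.05 against both, and for *Fpr1* -2.59, -1.70 and -2.60. The call of *C5ar1* against *E. coli* (-0.70, adjusted p = 0.0489) was lost in 10 of 12 fits that left out 1 library, all but those without unstimulated library b or d, and that of *Fpr2* (adjusted p = 0.0126) without *E. coli* library 3 (-0.85, adjusted p = 0.0569).

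Related receptors, a list of 37, had 15 tested genes in the first set and 19 in the second. With *E. coli* 5 rose and 3 fell, with IFN-γ 5 and 4, with both 4 and 7, and with IL-4 1 and 3, where 30.2%, 31.6%, 49.0% and 10.3% of all tested genes changed. The median log2 fold changes were 0.27, 0.04, -0.33 and 0.26, and those of all tested genes -0.02, -0.03, -0.04 and 0.00. Of the receptors for prostaglandin E2, the pair that was tested fell with every stimulus of the first set, *Ptger4* by log2 fold changes of -1.45, -1.69 and -2.54 with *E. coli*, IFN-γ and both, and *Ptger2* by -1.35, -1.77 and -3.13. *P2ry10* fell with *E. coli* (-1.39) and *Gpr35* rose (0.90). Corrected for shared tags but not scaled to library size, *Gpr35* had 69, 33 and 67 counts unstimulated. It had 95, 94 and 62 with IFN-γ and 89, 178 and 120 with both. *Ccrl2*, an atypical receptor that binds chemerin, rose from 83.5, 85.6 and 93.7 CPM to 225, 231 and 257 with IFN-γ and 378, 423 and 500.5 with both. With IL-4 the oxysterol receptor gene *Gpr183* rose (0.95, adjusted p = 0.0275) and *Lpar6* (-0.83), *Gpr34* (-0.49) and *S1pr1* (-0.49) fell.

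Genes of receptor signalling had 36 tested of 40. With *E. coli* 6 rose and 7 fell, with IFN-γ 8 and 12, with both 10 and 20, and with IL-4 2 and 3, beside 30.2%, 31.6%, 49.0% and 10.3% of all tested genes, with medians of -0.05, -0.21, -0.34 and -0.12. *Rgs2*, a GTPase-activating protein that shortens G protein signals, fell with *E. coli* (-1.005, SE 0.12) and with both stimuli (-1.57, SE 0.12) and rose with IL-4 (0.74, SE 0.19, adjusted p = 0.0302). Its unstimulated libraries reached 3445 counts in the first set, near the ceiling, and with the counts corrected for shared tags the changes were -1.51 with *E. coli* and -2.27 with both. *Grk5*, a kinase that phosphorylates active receptors, fell with IFN-γ (-0.79), both (-1.33) and IL-4 (-0.94). *Rgs10* rose with *E. coli* (1.25) and IFN-γ (0.87), the Src family kinase gene *Fgr* rose with *E. coli* (0.88) and *Pik3r5* fell (-0.66). With IFN-γ *Gng2* (1.52) and *Arrb1* (0.85) rose, with both *Plcb2* (-1.82) and *Rgs18* (-1.33) fell, and with IL-4 *Gnaq* rose (0.84) and *Grk6* fell (-0.70). Corrected for shared tags, *Gng2* had 298, 387 and 295 counts with both, beside 212, 146 and 182 unstimulated. *Arrb1* had 384, 431 and 371, beside 322, 198 and 256.

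Ligands and the enzymes that make or degrade them had 33 of 34 genes listed, with 23 tested in the first set and 26 in the second. With *E. coli* 8 rose and 5 fell, with IFN-γ 7 and 5, with both 12 and 5, and with IL-4 4 and 3, beside 30.2%, 31.6%, 49.0% and 10.3% of all tested genes, with medians of -0.04, 0.24, 0.42 and 0.04. *Ptgs2*, the inducible cyclooxygenase, was at 39.1, 22.2 and 33.5 CPM in libraries a to c of unstimulated cells and at 921, 1054 and 1172 with both stimuli. *Hdc*, which makes histamine, went from 19.0, 15.8 and 26.8 CPM to 494, 457 and 488. All libraries with both stimuli were many times above the unstimulated ones for these genes. *Ptgs2* rose by log2 fold changes of 3.08, 2.66, 5.01 and 1.04 with *E. coli*, IFN-γ, both and IL-4, and *Hdc* by 2.81, 3.00 and 4.51 with *E. coli*, IFN-γ and both. *Anxa1*, whose protein is a ligand of *Fpr2*, fell with *E. coli* (-1.72), IFN-γ (-1.97) and both (-1.58). *Saa1*, another such ligand, rose with *E. coli* (1.55, SE 0.43, adjusted p = 0.0101), and with IFN-γ it had at most 3 counts in a library, with an unstimulated level 4.73 times as high (exact 95% interval 1.82 to 15.6 for counting error only, and 3.12 to 8.39 times without 1 library). *Pafah1b3*, of an enzyme that degrades platelet-activating factor, rose with both (1.70). Its counts corrected for shared tags were 105, 59 and 91 unstimulated, 193, 239 and 192 with IFN-γ alone and 165, 236 and 195 with both. With IL-4 *Ltc4s*, which makes leukotriene C4, rose (1.89, adjusted p = 0.00432), and *Mmp9* (-2.37, adjusted p = 0.000109) and *Saa3* (-0.81, adjusted p = 0.00372) fell.

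Among 5681 genes, those nearest to a receptor were taken by the root mean square difference over the 4 log2 fold changes. For *Fpr1* they were *Ptges*, *Slpi* and *Gas7* (0.234, 0.262 and 0.319), and for *Fpr2* *Slc40a1*, *Blvrb* and *Slamf7* (0.325, 0.350 and 0.359). *Ltb4r1* had *Batf*, *Tmem40* and *Bri3bp* (0.124, 0.133 and 0.149) and *P2ry14* had *Polb*, *1700037C18Rik* and *Tm2d3* (0.0698, 0.0809 and 0.0878). *Ptafr* was nearest to *Rac1* and *Rab1a* (0.00947 and 0.0344).

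**Figure D3:**
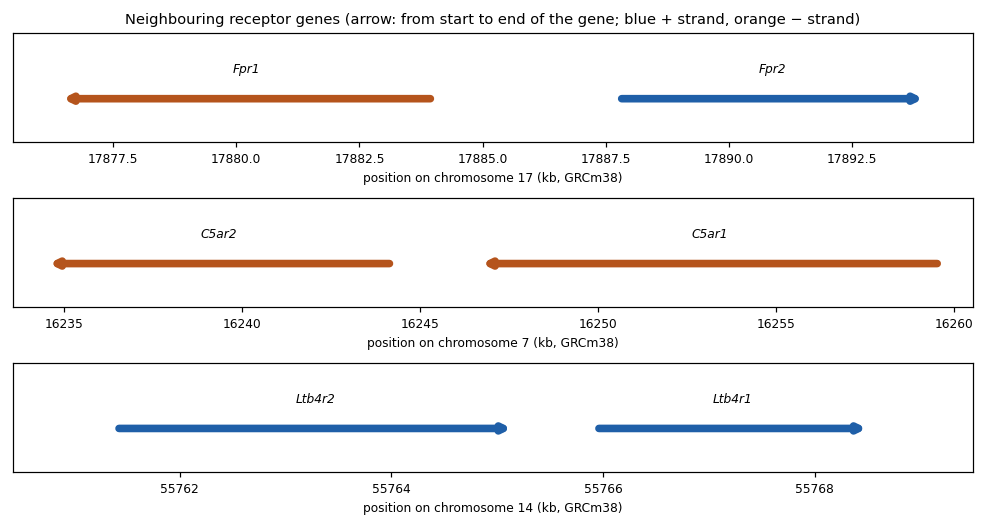
Gene spans of neighbouring receptors along chromosomes 17, 7 and 14 (horizontal axes, position in kb, GRCm38), with arrows from start to end of each gene, blue on the plus strand and orange on the minus strand. *Fpr1* and *Fpr2* point away from each other across 3883 bases, *C5ar1* and *C5ar2* lie 2588 bases apart on one strand, and *Ltb4r2* and *Ltb4r1* 823 bases apart.

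Promoter sequences of RefSeq (GRCm38.p6), 300 bases each, mostly upstream of a start, matched 9 of the 10 receptors with 13 promoters. They were searched on both strands for TTCNNNNGAA, bound by STAT6, for GAAANNGAAA, the core of the interferon-stimulated element, and for the kappa B motif. These are held by 6.95%, 3.44% and 4.51% of 32851 promoters. Of the promoters of *C5ar2* 1 held 1 match to TTCNNNNGAA, not overlapping another of these motifs, and the other 12 promoters held 0. A match describes letters only, and its absence says nothing of the factor. That promoter of *C5ar2*, which rose with IL-4, is shown with the match in capitals. It lies at chr7:16242282-16242581 on the minus strand, inside the span of the gene.
C5ar2: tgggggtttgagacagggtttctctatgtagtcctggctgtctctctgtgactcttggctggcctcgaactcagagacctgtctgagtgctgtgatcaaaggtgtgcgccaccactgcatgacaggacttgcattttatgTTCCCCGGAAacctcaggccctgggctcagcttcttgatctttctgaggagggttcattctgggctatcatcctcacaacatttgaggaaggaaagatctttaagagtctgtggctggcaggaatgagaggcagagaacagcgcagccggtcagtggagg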

How the data were processed

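The authors deposited counts per Ensembl gene for each of 18 libraries, without normalisation. Per the study's methods, libraries were made by CEL-Seq2, and reads were aligned to GRCm38 by TopHat2 2.1.0 and counted by HTSeq 0.6.1. The same methods, like the submitters' processing notes, also name fastp 0.20.1 for trimming and STAR 2.7.2a for alignment. Which libraries each aligner served is not given in the sources used here. In the first set 18.9% to 37.6% of counts fell on no gene and 1.84% to 2.27% were ambiguous, and these stayed out of library sizes and tests. Names of the reference annotation matched 98.3% and 99.7% of gene identifiers.

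Genes were kept by filterByExpr (minimum count 10, minimum total 15) and tested by edgeR 4.0.16 (quasi-likelihood test, TMM, Benjamini-Hochberg adjustment over all tested genes, adjusted p under 0.05) in R 4.3.3, with limma 3.58.1 installed and DESeq2 1.42.0 as an alternative. The first set was fitted over 12 libraries (9883 genes), the second over 6 (10556 genes), and differences between responses over all 18 (10671 genes). SEs are the absolute log2 fold change over the square root of F. Exact intervals of ratios of summed counts used SciPy 1.17.1 in Python 3.11.15, and near copies were searched with BLAST 2.17.0. The floor was 3 counts in a library, about the most that a count of 0 allows, for counting error only. The procedure was checked on simulated counts. No replicates of a group had identical counts or differed by sampling noise alone. The study calls the replicates biological, and whether each is an animal or a culture is not given in the sources used here, so that p-values measure the spread between libraries, which can be technical.

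The receptors and the lists (related receptors, receptor signalling, ligands and their enzymes, and markers of eosinophils, macrophages, neutrophils, mast cells or basophils, B cells, T or NK cells and dendritic cells) were chosen with earlier results of these data known. A gene near *Ptafr* in its changes and a promoter motif are not reported here. All receptors were named, and of each other list up to 4 changed genes per stimulus, those with the largest change whose groups do not overlap. Alternatives were other size factors, DESeq2, no filter, a change of at least 2-fold, fits of fewer libraries, a replicate block, leaving out each library, and, chosen after seeing the data, a correction of each count n of the first set to the number of molecules that would show n of 4096 tags.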

Additional observations from a re-analysis of the deposited data

Results flagged for a closer look

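The response to IL-4 differed from a response of the first set, by edgeR's test of the difference itself over 18 libraries, in 12 cases among the 7 receptors that passed the filter on low counts in both sets, with the unit of counts in the 2 sets not known to be the same. Against the response to *E. coli*, the log2 difference was -2.59 for *Fpr1*, -1.19 for *Fpr2*, and -0.70 for *C5ar1* (adjusted p = 0.0489). The call of *C5ar1* was lost in 10 of 12 fits that left out 1 library and with the correction for shared tags, and that of *Fpr2* without *E. coli* library 3 (adjusted p = 0.0569). Against that to IFN-γ it was -1.70 for *Fpr1*, -2.26 for *Fpr2*, -0.53 for *Ptafr* and 1.11 for *Ltb4r1*, and without the filter *Ptafr* did not pass (adjusted p = 0.0560). Against that to IFN-γ with *E. coli* it was -2.60 for *Fpr1*, -3.05 for *Fpr2*, -0.72 for *Ptafr*, 1.51 for *Ltb4r1* and 0.92 for *P2ry14*. *C5ar2* did not pass the filter in the first set and is not counted here, though the fit over 18 libraries gave 3.11, 3.38 and 4.13 against the responses to *E. coli*, IFN-γ and both. These values rest on 0 to 5 counts per stimulated library of the first set, depend on the prior count of the fit and are no bound.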

How the results depend on the processing

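With 3 libraries a group and 1523808 to 2734041 counts per library in the first set, small changes and genes of few counts could not be resolved, and the cause of the changes named here was not tested unless said. Of the values computed under other settings, 369 kept their direction and side of the threshold, 20 came to pass it, 5 no longer passed and 6 changed sign. Leaving out 1 library gave 587, 17, 35 and 33 in the same order.

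A change of at least 2-fold, stricter by construction, left 0 receptors with *E. coli* in place of 1, 1 with IFN-γ in place of 2, 2 with both stimuli in place of 5, 0 for both against IFN-γ in place of 3 and 2 for both against *E. coli* in place of 4. Among all genes it left 1023 of 2986 with *E. coli*, 1187 of 3120 with IFN-γ, 2210 of 4844 with both, 478 of 1089 with IL-4, 404 of 1209 for both against IFN-γ, 1325 of 3240 for both against *E. coli*, 1027 of 2525 for IFN-γ against *E. coli*, 245 of 457 for the interaction, and 1787 of 2995, 1789 of 2964 and 2728 of 4184 for IL-4 against the responses to *E. coli*, IFN-γ and both.

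Without the filter on low counts 2 receptors passed with *E. coli* and 4 in the interaction (*Fpr2*, *C5ar1*, *Ltb4r1* and *P2ry14*) in place of 0, and 1634 genes passed with IL-4 in place of 1089. A fit of only the compared libraries gave 2 with *E. coli*. DESeq2 gave 1 for the interaction. The correction for shared tags, chosen after seeing the data, gave 5 with IFN-γ and 1 for the interaction, *P2ry14*. The 5 calls lost were that of *Ptafr* for both against *E. coli* without the filter, with only the compared libraries and with the correction, that of *Ptafr* for IL-4 against IFN-γ without the filter, and that of *C5ar1* for IL-4 against *E. coli* with the correction.

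Of values that passed in neither fit, *C3ar1* for both against IFN-γ was -0.019 without the filter, -0.016 with only the compared libraries and -0.00018 with the correction, in place of 0.01. The interaction of *Ptafr* was -0.064 without the filter and -0.063 with the correction, in place of 0.01. The replicate block turned *Fpr1* for both against *E. coli* from -0.02 to 0.0017, and under it *Ltb4r1* for both against IFN-γ and *C5ar1* for both against *E. coli* came to pass. Stimulated libraries of one number deviated together little (mean correlation 0.109, from -0.0454 to 0.331 over 9 pairs, and -0.0538 over 18 pairs of other numbers). Each was also matched to the nearest of the 3 libraries of each other stimulated group. In 9 of 18 such matches the nearest bore the same number. This does not settle whether the numbers pair libraries, and the main fit has no block for them.

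Leaving out each library in turn, receptors called ranged from 1 to 3 for both against IFN-γ, from 0 to 3 for the interaction and from 2 to 5 for IL-4 against *E. coli*, *C5ar2* included. Log2 values that changed sign without having passed were those of *Fpr1* with IFN-γ (-0.17 to 0.031), *C5ar1* with both (-0.33 to 0.15), *Ltb4r1* (-0.038 to 0.13) and *P2ry14* (-0.14 to 0.065) with IL-4, *C3ar1* for both against IFN-γ (-0.012 to 0.039), *Fpr1* for both against *E. coli* (-0.27 to 0.40), *Fpr1* (-0.20 to 0.49) and *Ptafr* (-0.095 to 0.070) in the interaction, *C3ar1* for IL-4 against *E. coli* (-0.14 to 0.034), IFN-γ (-0.048 to 0.12) and both (-0.084 to 0.085), and *C5ar1* for IL-4 against both (-0.44 to 0.073). Among all genes, 1089 calls with IL-4 became 483, 495 and 515 without IL-4 library 1, 2 or 3. For both against IFN-γ 1209 became 740 without IFN-γ library 1 and 773 without library 2 of both. For the interaction 457 became 266 without unstimulated library a, 286 and 270 without *E. coli* library 1 or 2 and 294 without library 2 of both.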
